A study of Mus musculus with 8 samples.

Results

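This account covers transcripts of the B cell receptor, of major histocompatibility complex (MHC) class II and of plasmacytoid dendritic cells in sorted mouse haematopoietic stem cells (HSCs), which sustain every blood lineage from the marrow. Its 10 genes were picked by symbol, because their levels were known to differ widely between single libraries. Values were at hand for 7 of them, Ighm, Cd79b, H2-Ab1, H2-Aa, H2-Eb1, Cd74 and Tcf4, among 11854 named genes. Cd79a, Irf8 and Siglech were not analysed here. The groups were 4 Nupr1-/- mice and 4 wild type mice on a C57BL/6 background, with 1 library of polyadenylated RNA per mouse. The labels give neither the sorting gate, the age and sex of the mice, nor the deleted part of Nupr1, a gene for a small stress-induced nuclear protein. Values are normalised reads, that is, reads per gene divided by 1 size factor per library.

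An MHC class II molecule pairs an alpha with a beta chain and shows peptides to helper T cells. Cd74 encodes the invariant chain, which holds the groove of the new molecule until it reaches the endosome. The transactivator CIITA drives these genes together through X and Y boxes in their promoters. Dendritic cells, B cells and macrophages are the usual sites of class II expression. Ighm encodes the constant part of the mu heavy chain of IgM, and Cd79a and Cd79b encode the signalling pair of the B cell receptor. Tcf4 encodes E2-2, an E protein that specifies plasmacytoid dendritic cells.

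The promoters of 2 class II genes are shown because these were the 2 of the genes with a promoter sequence at hand. Whether these sequences bear on the pattern across the libraries was not tested. They span 250 bases before to 50 bases after the RefSeq start (build GRCm38.p6, which is mm10). H2-Aa lies at chr17:34287774-34288073 on the minus strand and H2-Eb1 at chr17:34305617-34305916 on the plus strand. Capitals mark GCAACT, a core within the X box, and CTGATTGG, which holds the inverted CCAAT of the Y box. These letters were chosen after the sequences had been read.
H2-Aa: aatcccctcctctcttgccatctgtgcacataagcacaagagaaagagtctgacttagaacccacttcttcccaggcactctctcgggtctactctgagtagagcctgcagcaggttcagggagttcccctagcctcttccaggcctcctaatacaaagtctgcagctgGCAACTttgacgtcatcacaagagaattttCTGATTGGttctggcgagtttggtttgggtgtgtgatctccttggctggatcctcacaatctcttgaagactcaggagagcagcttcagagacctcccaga
H2-Eb1: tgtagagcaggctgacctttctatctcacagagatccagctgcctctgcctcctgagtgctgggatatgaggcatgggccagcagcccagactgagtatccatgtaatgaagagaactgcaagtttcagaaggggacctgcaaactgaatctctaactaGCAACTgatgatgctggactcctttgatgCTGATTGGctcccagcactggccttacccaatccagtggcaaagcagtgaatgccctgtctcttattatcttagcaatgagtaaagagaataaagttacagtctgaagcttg
The marked stretches lay 24 bases apart in H2-Aa and 23 bases apart in H2-Eb1. On either strand GCAACT was in 10.89% of 32851 RefSeq promoters and CTGATTGG in 4.10%. Both in this order, 20 to 27 bases apart, were in 5 promoters, those of H2-Aa, H2-Eb1, H2-Eb2, Gstz1 and Tigd3. The range of 20 to 27 holds the gaps of H2-Aa and H2-Eb1, so their matches were fixed in advance. H2-Ab1 and Cd74 had no promoter entry at hand and were not searched. A match is a description of these letters and does not show that a factor bound there.

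The libraries held 2296101 to 4769401 reads. Of 21 HSC identity genes looked up, 20, such as Procr and Hlf, had reads in every library, and the other, Cd48, did not. Nupr1 averaged 168 ± 35.0 normalised reads in Nupr1-/- libraries and 246 ± 80.2 in wild type libraries (SD, n = 4 each), a difference that did not pass the limma test (adjusted p = 0.433). Reads of the deleted exons cannot be told from reads of the rest of Nupr1 in these values. The target gene therefore did not check the labels, and groups are named as labelled throughout. Xist, the RNA of the inactive X chromosome, was at 107 to 159 in Nupr1-/- libraries and at 0 to 11.8 in wild type libraries, so a difference of sex and one of genotype cannot be told apart. On the first principal component, with 25.6% of the variance, wild type library 2 was far from the rest. It had reads for 11018 genes, against 11446 to 11701 in the other libraries.

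Gene positions are those of GENCODE M21 on mm10, and values are per gene, so no exon or UTR is told apart. Among the class II genes, H2-Ab1 (chr17:34257689-34269419, plus strand) encodes the beta chain of I-A, the class II molecule that C57BL/6 mice display. It had 184, 216, 602 and 179.6 normalised reads in Nupr1-/- libraries 1 to 4 and 339, 105, 1023 and 1607 in wild type libraries 1 to 4. The 2 highest values were those of wild type libraries 3 and 4, the next was that of Nupr1-/- library 3, and the groups overlapped. H2-Aa (chr17:34282744-34287823, minus strand) encodes the alpha chain of the same molecule. It had 72.9, 71.1, 363 and 41.7 normalised reads in Nupr1-/- libraries 1 to 4 and 134, 99.5, 433 and 839 in wild type libraries 1 to 4. Again wild type libraries 4 and 3 came first and Nupr1-/- library 3 next.

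H2-Eb1 (chr17:34305867-34316674, plus strand) encodes the beta chain of I-E, whose alpha chain gene is not functional in C57BL/6 mice. It had 86.0, 68.6, 250.04 and 75.0 normalised reads in Nupr1-/- libraries 1 to 4 and 64.8, 14.8, 658 and 854 in wild type libraries 1 to 4. The wild type libraries held both the highest and the lowest value, which were 57.8-fold apart, the lowest resting on 15 reads. Cd74 lies at chr18:60803848-60812652 on the plus strand. It had 223, 117, 381 and 75.9 normalised reads in Nupr1-/- libraries 1 to 4 and 155, 71.9, 938 and 1076 in wild type libraries 1 to 4. Its order was the same at the top, with wild type library 4, wild type library 3 and Nupr1-/- library 3. In bulk RNA of sorted cells, a larger share of cells of another type and more RNA per cell cannot be told apart.

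Of the B cell receptor genes, Ighm (chr12:113418558-113422730, minus strand) varied more than Cd79b (chr11:106311341-106314762, minus strand). Ighm had 17.5, 0, 166 and 0 normalised reads in Nupr1-/- libraries 1 to 4 and 50.8, 38.4, 1387 and 6740.4 in wild type libraries 1 to 4. Wild type library 4 alone held 80.2% of the Ighm signal of all 8 libraries, from 8918 reads, and wild type library 3 held 16.5%. The counts of 0 allow up to 3.74 normalised reads in Nupr1-/- library 2 and 2.78 in Nupr1-/- library 4, at 3 reads each and for counting error only. The Ighm entry is the constant region (IG_C_gene), so its reads do not show whether a rearranged heavy chain was transcribed.

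Cd79b had 271, 212, 208 and 245 normalised reads in Nupr1-/- libraries 1 to 4 and 238, 384, 724 and 859 in wild type libraries 1 to 4. It was read in every library at 170 reads or more, so it did not share the near absence of Ighm. Nupr1-/- library 3, which came next after wild type libraries 3 and 4 for Ighm and the class II genes, had the lowest Cd79b value of the 8. Tcf4 lies at chr18:69343356-69689079 on the plus strand. It had 136, 92.3, 193 and 231 normalised reads in Nupr1-/- libraries 1 to 4 and 453, 149.8, 434 and 395 in wild type libraries 1 to 4. Its highest value was in wild type library 1, and wild type library 2 lay within the range of the Nupr1-/- libraries.

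**Figure D1:**
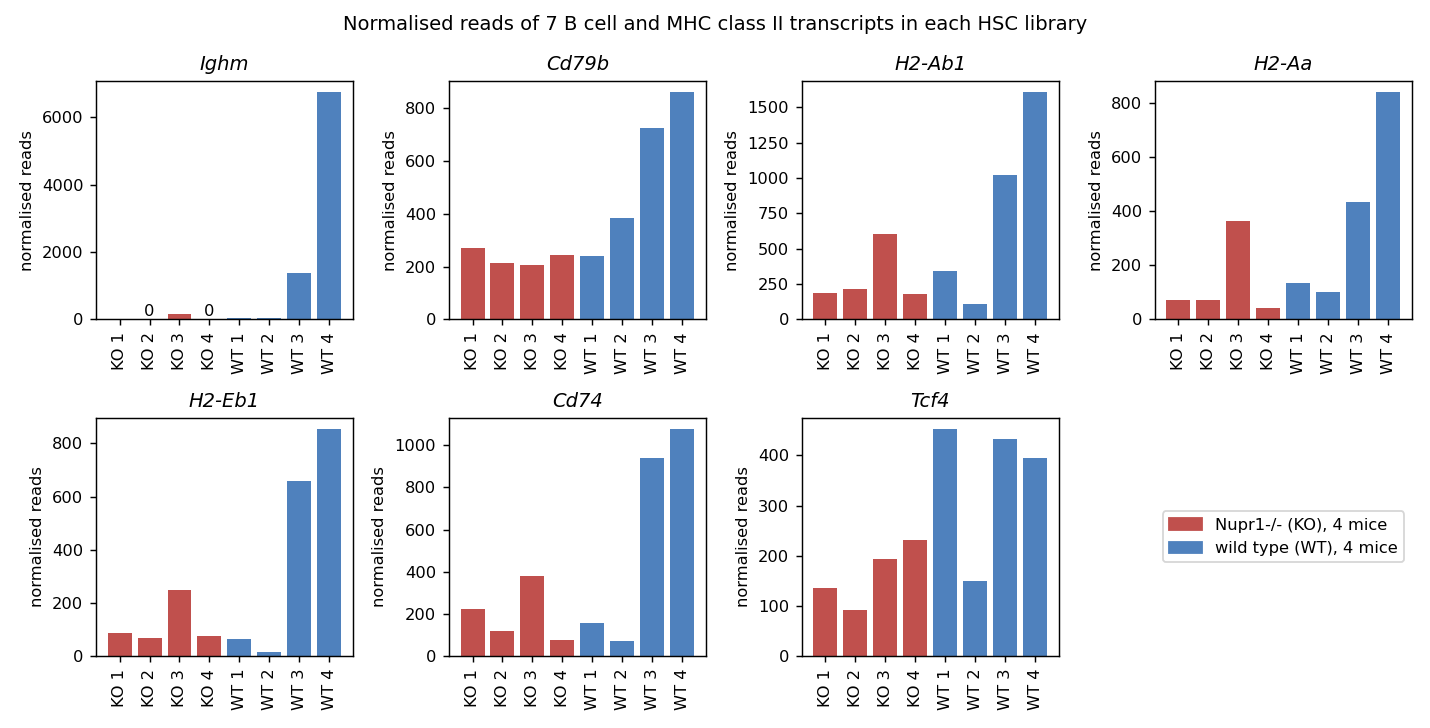
Normalised reads (vertical axes, each from 0) of the 7 genes in each library, with Nupr1-/- libraries in red to the left of wild type libraries in blue. Wild type libraries 3 and 4 are the 2 highest bars in every panel but that of Tcf4, and Nupr1-/- library 3 is the third highest for Ighm, H2-Ab1, H2-Aa, H2-Eb1 and Cd74.

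Wild type libraries 3 and 4 were thus the 2 highest for 6 of the 7 genes, where the same held for 5.66% of the 10989 genes tested. Nupr1-/- library 3 was the highest Nupr1-/- library for 5 of the 7, where it was so for 28.9% of genes tested. One library held at least 25% of the normalised reads for 6 of the 7 genes and for 26.4% of genes tested. The largest share had a median of 37.8% over the 7 genes and of 20.8% over all genes tested. These counts describe the pattern for which the genes were picked, and nothing is read from them.

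The genes varied together to different degrees. Likeness was measured as profile overlap, in which each gene's reads are turned into shares over the 8 libraries and the smaller of the 2 shares is summed. Among the 4 class II genes the overlap ran from 85.5% (Cd74 with H2-Aa) to 92.2% (Cd74 with H2-Eb1), where the median overlap of these 4 genes with all genes tested ran from 49.7% to 59.1%. Wild type libraries 3 and 4 held 61.8% to 73.0% of the normalised reads of these 4 genes. Genes picked for such shares overlap more than most, so nothing is read from the contrast with the medians. Cd79b overlapped the class II genes by 71.9% to 80.7%, against a median of 70.3% with all genes. Ighm overlapped the other 6 genes by 38.7% to 61.0%, since so much of it lay in 1 library, and its median with all genes was 27.3%. Tcf4 overlapped the class II genes by 63.9% to 72.4%, where its median with all genes was 72.2%.

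Outside the 7 genes, the 2 most alike by this measure were found for each. For H2-Ab1 and H2-Aa the first was Ncf1, a subunit of the phagocyte NADPH oxidase, at 90.8% and 91.9%. It had 21.9, 16.2, 86.6 and 6.48 normalised reads in Nupr1-/- libraries 1 to 4 and 43.9, 0, 91.7 and 164 in wild type libraries 1 to 4. Their second were A530040E14Rik (88.5%) and Zfp946 (89.96%). For H2-Eb1 it was Siglecg, an inhibitory lectin of B cells (91.4%), and then Ppfia4 (88.2%). Cd74 was followed by Ppfia4 (91.3%) and Filip1l (87.8%). For Ighm the first was Rorb, an orphan nuclear receptor, at 89.8%, with 44.2 to 99.2 normalised reads in Nupr1-/- libraries and 205, 137, 1062 and 4148 in wild type libraries 1 to 4. The next was Cd52, a surface glycoprotein of lymphocytes (79.4%). Cd79b was closest to Dennd1b (92.6%) and Fam49b (91.4%), and Tcf4 to Zfp280c (94.5%) and Ubr3 (93.8%).

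**Figure D2:**
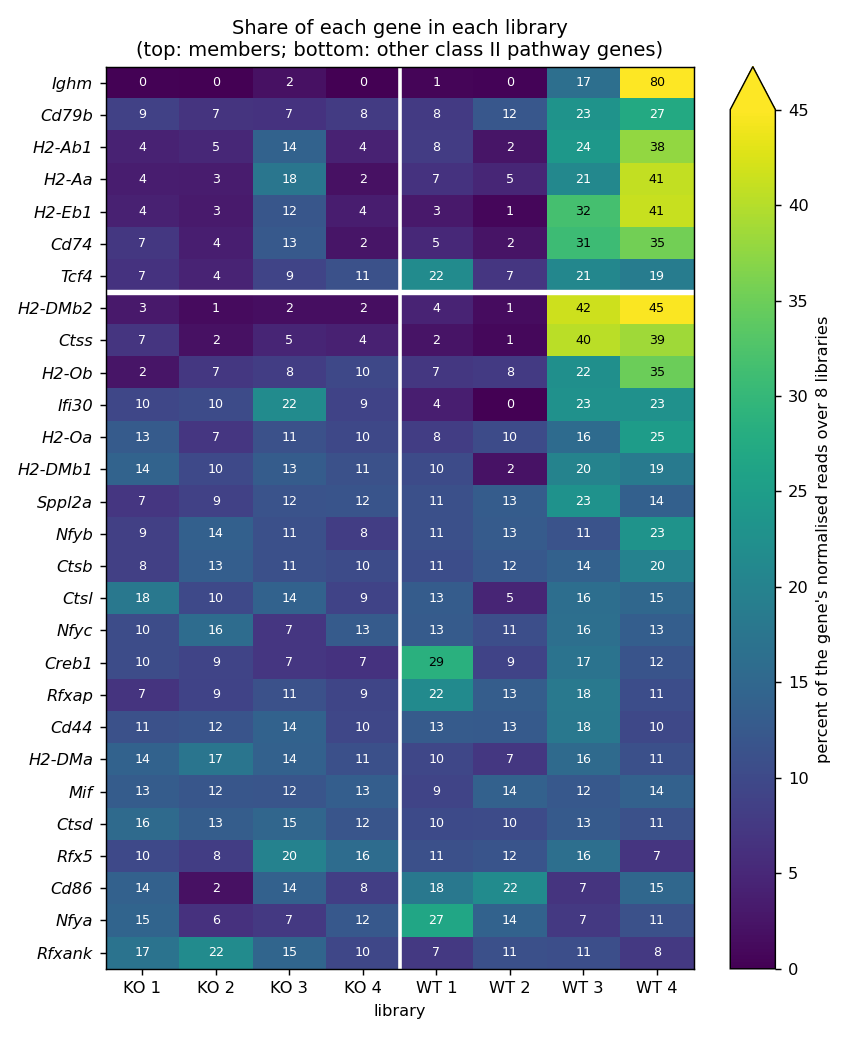
Percent of each gene's normalised reads (colour and printed number) that lay in each library (columns, Nupr1-/- left of wild type), for the 7 genes (top block) and 21 other genes of the class II pathway (bottom block, ordered by their share in wild type libraries 3 and 4). The columns of wild type libraries 3 and 4 are bright for the class II genes and for H2-DMb2, Ctss and H2-Ob, while those of Nfya and Rfxank are not.

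Levels were compared between genes per kilobase, taking all annotated exons of a gene together. Per kilobase Ighm spanned 0 to 3574 normalised reads, Cd74 42.8 to 641, H2-Ab1 41.1 to 626 and Cd79b 145 to 601. H2-Eb1 spanned 7.60 to 439, H2-Aa 10.97 to 221 and Tcf4 3.37 to 16.5 per kilobase, the last over 27382 exon bases that no single transcript holds. The ratio of Cd74 to H2-Ab1, per kilobase, was 0.646 to 1.86 in Nupr1-/- libraries and 0.700 to 1.40 in wild type libraries. That of H2-Aa to H2-Ab1 was 0.157 to 0.408 in Nupr1-/- libraries and 0.267 to 0.638 in wild type libraries. So while H2-Ab1 itself spanned 15.2-fold, its ratios to the alpha chain and to the invariant chain stayed within a narrower range. The lowest H2-Ab1 value was that of wild type library 2. The ratio of H2-Eb1 to H2-Ab1 was 0.420 to 0.619 in Nupr1-/- libraries, against 0.252, 0.185, 0.850 and 0.702 in wild type libraries 1 to 4. That of Ighm to Cd79b was 0.0490, 0, 0.607 and 0 in Nupr1-/- libraries 1 to 4, against 0.162, 0.0759, 1.45 and 5.95 in wild type libraries 1 to 4. Ighm and Cd79b therefore did not keep 1 ratio even between wild type libraries 3 and 4.

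**Figure D3:**
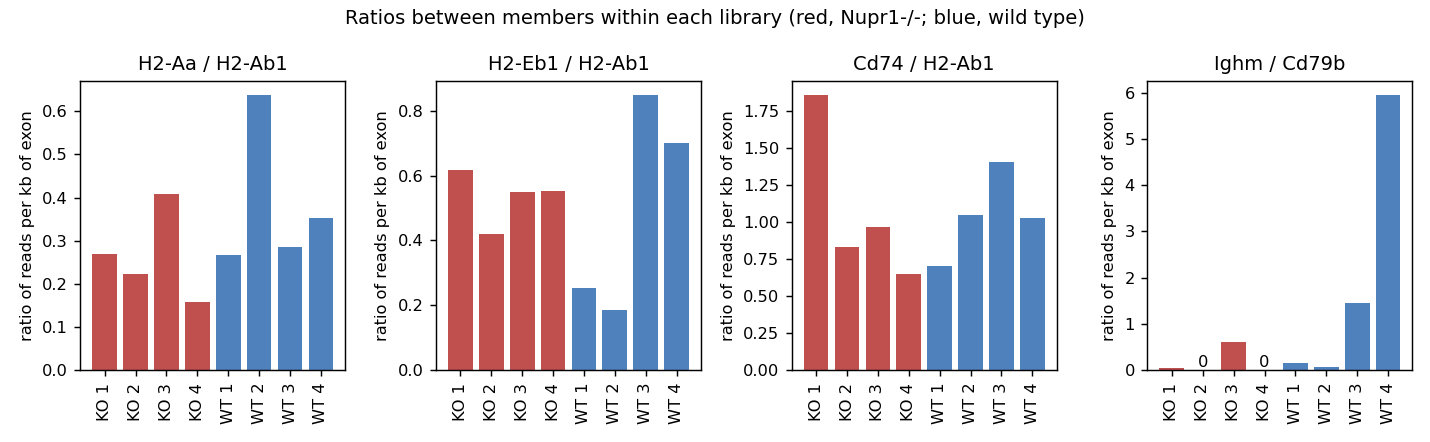
Ratios of normalised reads per kilobase of exon (vertical axes, each from 0) between pairs of the genes in each library, Nupr1-/- in red left of wild type in blue. The Ighm to Cd79b ratio runs from 0 to 5.95, while that of Cd74 to H2-Ab1 runs from 0.646 to 1.86.

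The study's comparison, Nupr1-/- against wild type, asks how loss of Nupr1 changed the stem cell transcriptome. The 7 genes had log2 differences below 0, but they were picked on these libraries, so the differences are given as a description. The difference was -5.64 for Ighm, -1.07 for Cd79b, -0.94 for H2-Ab1, -1.47 for H2-Aa, -0.58 for H2-Eb1, -0.97 for Cd74 and -1.09 for Tcf4. The 4 values of each group overlapped for all 7, where the groups did not overlap for 11.7% of genes tested, 5.91% being lower in Nupr1-/-. In the limma fit across all genes the adjusted p of 0 of the 7 was under 0.05, beside 3.80% of all genes (1.68% higher and 2.12% lower in Nupr1-/- libraries). The unadjusted p was under 0.05 for 3 of the 7, beside 19.7% of genes tested. By edgeR 0 passed, beside 3.10% of genes, and by DESeq2 2 passed, Cd79b and Tcf4, beside 7.39%. The genes were picked on these values, so nothing is read from these counts.

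The spread between libraries was wide in both groups for H2-Ab1 and Ighm. For H2-Ab1 the mean was 295 ± 205 in Nupr1-/- libraries and 769 ± 681 in wild type libraries, and for Ighm it was 45.9 ± 80.6 in Nupr1-/- libraries and 2054 ± 3188 in wild type libraries (SD, n = 4 each). Without wild type libraries 3 and 4 the difference was 0.43 for H2-Ab1, 0.65 for Cd74 and 1.69 for H2-Eb1. These libraries were chosen as the highest for 6 of the genes, so their removal shifts those differences upward by construction, and nothing is read from the sign. It was -0.29 for H2-Aa, -0.38 for Cd79b, -2.60 for Ighm and -0.76 for Tcf4. The difference of H2-Eb1 was 0.11 without wild type library 3 and 0.23 without wild type library 4. Without wild type library 2 it was -1.69, and there H2-Ab1 had -1.68, Cd74 -1.69, H2-Aa -1.94, Ighm -6.72, Cd79b -1.18 and Tcf4 -1.47. Tcf4 had 21.7% of its reads in wild type library 1, 20.8% in wild type library 3 and 18.9% in wild type library 4. Its difference was -1.47 to -0.85 with any 1 library left out.

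**Figure D4:**
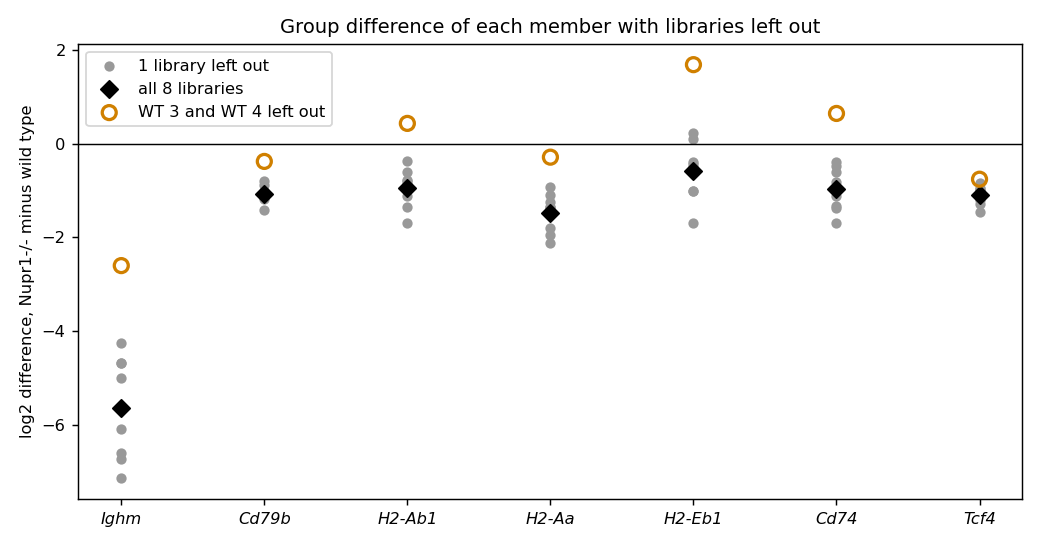
Log2 difference, Nupr1-/- minus wild type, of each gene with all 8 libraries (diamonds), with each library left out in turn (grey points) and with wild type libraries 3 and 4 both left out (open circles). The open circles lie above 0 for H2-Ab1, H2-Eb1 and Cd74, while the diamonds of all 7 genes lie below 0.

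Other genes of class II presentation were examined in a list of 30, of which 21 were tested. None passed in limma (0 of 21, 3 with an unadjusted p under 0.05, a count to be read, as in each list after it, beside the 19.7% of all genes), and H2-DMb2 passed in edgeR and in DESeq2. H2-DMb2 encodes a beta chain of H2-DM, which exchanges the invariant chain fragment for peptide. It had 17.5, 7.48, 8.84 and 9.26 normalised reads in Nupr1-/- libraries 1 to 4 and 25.1, 7.88, 232 and 249 in wild type libraries 1 to 4 (limma adjusted p = 0.193, edgeR adjusted p = 0.0424, DESeq2 adjusted p = 0.00115). Creb1, which encodes a factor that binds the X box region, averaged 251 ± 53.2 in Nupr1-/- libraries and 498 ± 260 in wild type libraries (limma adjusted p = 0.141). Wild type libraries 3 and 4 were the 2 highest for 8 of the 21 genes, beside 5.66% of all genes tested.

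The 8 genes were H2-DMb1, H2-DMb2, H2-Oa, H2-Ob, Ctss, Ctsb, Ifi30 and Sppl2a. They act on peptide loading, proteolysis, thiol reduction or cleavage of the invariant chain. For Ctsb the margin was small, at 1040 in wild type library 3 against 1005 in Nupr1-/- library 2. For Sppl2a it was 179 in wild type library 4 against 169 in wild type library 2. Genes of like function were not all among the 8. H2-DMa was highest in Nupr1-/- library 2 (1057 normalised reads), and Ctsl (672) and Ctsd (1296) were highest in Nupr1-/- library 1. Ctss, the cathepsin that trims the invariant chain, had 77.3, 22.4, 51.2 and 45.4 normalised reads in Nupr1-/- libraries 1 to 4 and 26.5, 10.8, 447 and 429 in wild type libraries 1 to 4. H2-Ob, a chain of the H2-DM regulator H2-O, had 32.1 to 125 in Nupr1-/- libraries and 93.3, 99.5, 288 and 449 in wild type libraries 1 to 4. Ctss, H2-Ob, Ifi30, H2-DMa, Ctsl and Ctsd were chosen after their values were seen. Ifi30, a thiol reductase of antigen processing, had 55.4, 59.9, 125 and 51.9 in Nupr1-/- libraries 1 to 4 and 22.3, 0, 132 and 132 in wild type libraries 1 to 4. Nupr1-/- library 3 was high for Ifi30 as for the class II chains, but not for Ctss or H2-DMb2. The RFX and NF-Y genes, whose products bind the X and Y boxes, were not among the 8. The median log2 difference of the 21 genes was -0.38, beside 0.03 for all genes tested.

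Of 34 other B lineage genes, 7 were tested and 0 passed (limma, 1 with an unadjusted p under 0.05; 0 by edgeR and by DESeq2). Bank1, a B cell scaffold protein, had 29.2 normalised reads in Nupr1-/- library 3 and 0 in the other Nupr1-/- libraries, against 31.3, 17.7, 106 and 59.0 in wild type libraries 1 to 4 (limma adjusted p = 0.0816). Bach2, a repressor of plasma cell fate, averaged 50.5 ± 36.0 in Nupr1-/- libraries and 119.9 ± 63.1 in wild type libraries (limma adjusted p = 0.290). Cd37, a tetraspanin of B cells, averaged 378 ± 46.3 in Nupr1-/- libraries and 296 ± 175 in wild type libraries, and Foxo1 averaged 233 ± 31.1 in Nupr1-/- libraries and 372 ± 154 in wild type libraries (SD, n = 4 each). Of 10 genes that define B cells, Cr2, a complement receptor, was the 1 with values here. It had 0 to 8.33 in Nupr1-/- libraries and 34.8, 7.88, 27.9 and 85.4 in wild type libraries 1 to 4. Cr2 was highest in wild type library 4, where Ighm was highest too, but second in wild type library 1. Whether B cells contributed to the Ighm and class II reads was not tested.

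In the list of B cell receptor signalling genes 1 of 14 passed, lower in Nupr1-/- libraries, and 4 had an unadjusted p under 0.05. It was Ptprc, the phosphatase CD45 of all white blood cells, which fell to 444 ± 86.4 in Nupr1-/- libraries, against 934 ± 141 in wild type libraries (SD, n = 4 each). Its log2 change was -1.08 ± 0.22 (SE, limma adjusted p = 0.0145), and all 4 Nupr1-/- values (353 to 528) lay below all 4 wild type values (742 to 1057). Without Nupr1-/- library 2 its log2 change was -1.02 (limma adjusted p = 0.0556), and without wild type libraries 3 and 4 it was -1.02 as well (limma adjusted p = 0.103). Ptpn6, the phosphatase SHP-1 that dampens receptor signals, averaged 1336 ± 280 in Nupr1-/- libraries and 780.4 ± 245 in wild type libraries (limma adjusted p = 0.0525).

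Plasmacytoid dendritic cell genes numbered 22, of which 12 were tested and 0 passed in limma (3 with an unadjusted p under 0.05; 0 by edgeR, and 1 by DESeq2, Runx2). Runx2, a factor of plasmacytoid dendritic cell exit from the marrow, averaged 203 ± 30.6 in Nupr1-/- libraries and 392 ± 64.7 in wild type libraries (limma adjusted p = 0.0523). Wild type libraries 3 and 4 were the 2 highest for 7 of the 12 genes, beside 5.66% of all genes tested. Atp1b1 was at 0 to 4.37 in Nupr1-/- libraries and at 13.9, 10.8, 44.9 and 67.3 in wild type libraries 1 to 4 (limma adjusted p = 0.122). Pld4, an endosomal nuclease of these cells chosen after its values were seen, had 0 to 22.4 in Nupr1-/- libraries and 0, 0, 367 and 418 in wild type libraries 1 to 4. Bcl11a, a factor shared with lymphoid progenitors, had 457 to 632 in Nupr1-/- libraries and 556 to 1001 in wild type libraries, and Grn, which encodes progranulin, had 748 to 1142 in Nupr1-/- libraries and 476 to 1194 in wild type libraries. Of 9 defining markers, 3 had values here. Bst2 had 68.6 to 117 in Nupr1-/- libraries and 52.2, 40.4, 40.9 and 31.7 in wild type libraries 1 to 4. Irf7 had 145 to 468 in Nupr1-/- libraries and 86.3, 330.1, 176 and 107 in wild type libraries 1 to 4. Pacsin1 had 0, 0, 0 and 0.926 in Nupr1-/- libraries 1 to 4 and 32.7, 10.8, 12.96 and 6.05 in wild type libraries 1 to 4. The 3 summed to 229.6 to 577 in Nupr1-/- libraries and to 171, 381, 230.3 and 144 in wild type libraries 1 to 4. The part of such cells in the values was not tested.

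Genes of early lymphoid priming include those that multipotent progenitors switch on before they commit to a lymphoid fate. Of 12 tested, 0 passed in limma (3 with an unadjusted p under 0.05; 0 by edgeR, and 1 by DESeq2, Ikzf1). Cd53, a tetraspanin of white blood cells, averaged 22.9 ± 30.6 in Nupr1-/- libraries and 161 ± 123 in wild type libraries (limma adjusted p = 0.0657). Ikzf1, which encodes the lymphoid factor Ikaros, averaged 460.4 ± 57.0 in Nupr1-/- libraries and 723 ± 82.2 in wild type libraries (limma adjusted p = 0.0864). Genes of this list for which wild type libraries 3 and 4 were the 2 highest included Flt3, Satb1 and Cd53.

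Partners and antagonists of Tcf4 and relatives of Irf8 formed the last list, in which 0 of 14 passed in limma (5 with an unadjusted p under 0.05; 0 by edgeR, and 2 by DESeq2, Id2 and Irf2). Id2, an inhibitor that sequesters E proteins such as that of Tcf4, averaged 27.3 ± 17.4 in Nupr1-/- libraries and 118 ± 61.5 in wild type libraries (limma adjusted p = 0.0994). Irf2, an interferon regulatory factor, had 19.4 to 38.9 in Nupr1-/- libraries and 60.1 to 124 in wild type libraries (limma adjusted p = 0.127). Tcf12 and the inhibitor genes Id1, Id2 and Id3 were highest in wild type libraries 3 and 4, whereas Tcf4 itself was not.

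Markers of other cells were set beside these values. Cd48, which most HSC sorts select against, had 0 to 12.96 normalised reads in Nupr1-/- libraries and 0, 0, 114 and 105 in wild type libraries 1 to 4. The 20 HSC identity genes, Cd48 not among them, summed to 14069.6 to 16783 in Nupr1-/- libraries and to 18688, 16527, 17939 and 14370.4 in wild type libraries 1 to 4. Of 6 monocyte markers Ms4a6c alone had values, 6.48 to 24.8 in Nupr1-/- libraries and 6.96 to 27.97 in wild type libraries. None of the 6 neutrophil markers was analysed here. Prtn3, a granule protease of myeloid progenitors, had 847 to 1445 in Nupr1-/- libraries and 1420, 983, 2418 and 2908 in wild type libraries 1 to 4. Gfi1 had 46.7 to 72.3 in Nupr1-/- libraries and 65.0 to 234 in wild type libraries. Lyz2, the lysozyme gene of myeloid cells, had 1393 to 2607 in Nupr1-/- libraries and 1589 to 3123 in wild type libraries. Klf4 had 257 to 661 in Nupr1-/- libraries and 116 to 579 in wild type libraries, and Cst3 had 1531 to 2127 in Nupr1-/- libraries and 1429 to 2136 in wild type libraries. The part of other cell types in the class II and Ighm values was not tested.

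Of erythroid genes, Car2 had 3852 to 5727 in Nupr1-/- libraries and 2066 to 4445 in wild type libraries, and Tfrc had 71.3 to 157 in Nupr1-/- libraries and 98.9 to 363 in wild type libraries. Of T cell genes, Lck had 94.8 to 343 in Nupr1-/- libraries and 135 to 246 in wild type libraries, and Lat had 260 to 457 in Nupr1-/- libraries and 208 to 390 in wild type libraries. The erythroid factor gene Klf1, named here because it was the 1 erythroid gene to pass, had 45.2, 24.9, 85.7 and 69.4 in Nupr1-/- libraries 1 to 4 and 1.39, 2.96, 2.99 and 0 in wild type libraries 1 to 4 (limma adjusted p = 0.0341, edgeR adjusted p = 0.0263, DESeq2 adjusted p = 4.67e-05). The 3 erythroid markers with values, Klf1, Hba-a1 and Hbb-bs, summed to 41.1 to 97.2 in Nupr1-/- libraries and to 2.96 to 24.9 in wild type libraries.

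The dendritic cell gene Wdfy4 had 448 to 683 in Nupr1-/- libraries and 246 to 492 in wild type libraries. Cd83, a maturation marker of dendritic cells that was the 1 conventional dendritic cell gene to pass in limma, was named after its values were seen. It had 0, 0, 81.3 and 0 in Nupr1-/- libraries 1 to 4 and 100.3, 76.9, 169 and 236 in wild type libraries 1 to 4 (limma adjusted p = 0.0235, edgeR adjusted p = 0.277, DESeq2 adjusted p = 0.493). Nupr1-/- library 3 and wild type libraries 3 and 4 were thus the highest of their groups for Cd83. Wild type libraries 3 and 4 were the 2 highest for 3 of 11 conventional dendritic cell genes, 1 of 5 monocyte and macrophage genes, 0 of 3 T and NK cell genes, 1 of 5 erythroid genes and 3 of 20 HSC identity genes.

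**Figure D5:**
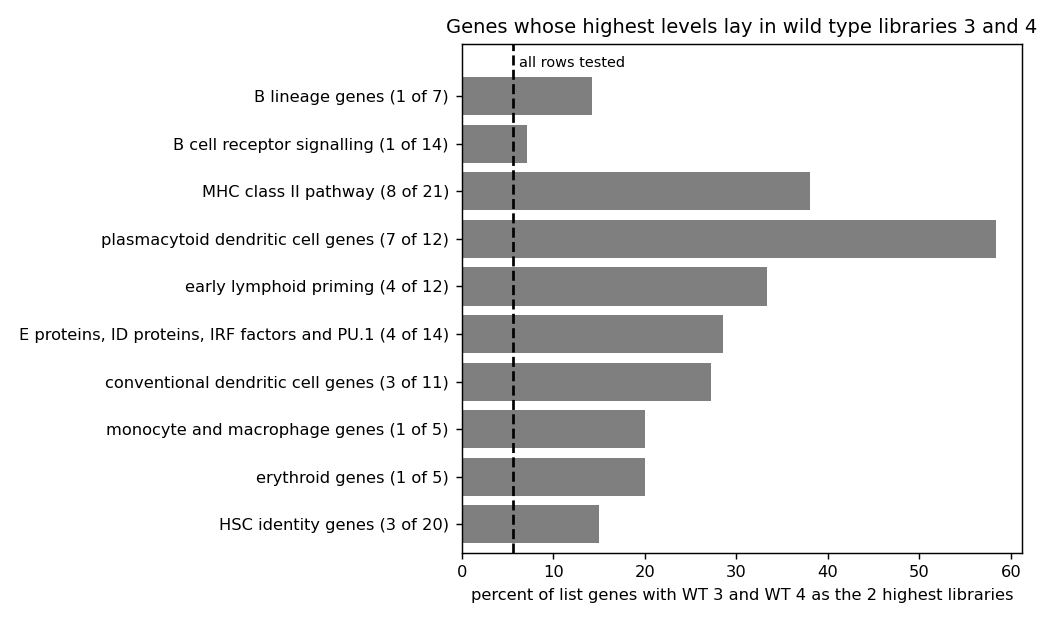
Percent of the tested genes of each list (horizontal axis, counts beside the names) for which wild type libraries 3 and 4 were the 2 highest of 8, for lists with at least 5 tested genes. The dashed line marks 5.66% for all genes tested. The longest bars are those of plasmacytoid dendritic cell genes (7 of 12) and the class II pathway (8 of 21). None of the 3 defining plasmacytoid dendritic cell markers with values was highest in wild type library 3 or 4.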

How the data were processed

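Libraries of polyadenylated RNA from sorted HSCs were prepared with the Nextera XT kit, which leaves strand unmarked, per the labels' protocols. HISAT2, featureCounts (Subread), DESeq2, bcl2fastq and the build mm10 are named, with no role or version, per the submitters' processing notes. The authors deposited 1 table of normalised signal per gene, in which each library's values are multiples of 1 step, the inverse of its size factor. In each library 100% of values were whole multiples of 1 step (tolerance 0.001), the smallest value above 0. The table had 11855 rows, and 1 without a name was left out. Every row was above 0 in at least 3 libraries.

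A gene was tested if 4 or more libraries reached 10 (10989 genes). These were compared on log2(value + 1) in R 4.3.3 with limma 3.58.1 (robust eBayes with a mean trend, two-sided, Benjamini-Hochberg over all genes tested, threshold 0.05). Differences are Nupr1-/- minus wild type on that scale, which can understate or overstate the change of low genes. The log2 difference of Bank1 was -4.24 in limma and -2.82 in edgeR, and that of Atp1b1 was -3.71 in limma and -4.36 in edgeR. edgeR 4.0.16 and DESeq2 1.42.0 were run on the recovered reads as alternatives. The script was tested on simulated data, in which DESeq2 made more false calls than its threshold allows. It missed the limit first set, which was then widened for the alternatives, so its calls may be too many. The genes and lists were chosen with earlier results of these data known. Named were the genes with values, from each of the 6 tested lists the called genes (at most 4) or, with fewer than 2 called, the 2 of smallest p, the 2 of highest mean from lists of other cell types, and for each gene the 2 most alike. Positions and exon lengths came from GENCODE M21. Exons of the 7 genes overlapped no other gene except 12 bases of Cd74. Reads were not tagged by molecule, so limits from counts cover counting error only. The mice are 1 per library, per the labels. Some results are not reported here.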

Additional observations from a re-analysis of the deposited data

Results flagged for a closer look

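In a group of 4 mice, a value was marked where its gap to the nearest other value, as a share of the group's range, was above Dixon's 95% critical value. This was applied to 90 groups, and chance marks about 1 in 20. It marked 10 values. The 7 genes were picked because single libraries differed widely, so their marks are a description and are not set against chance. For 4 of the 7 genes the marked value was that of Nupr1-/- library 3, with 363 for H2-Aa (others 41.7 to 72.9), 602 for H2-Ab1 (others 179.6 to 216), 250.04 for H2-Eb1 (others 68.6 to 86.0) and 166 for Ighm (others 0 to 17.5). The same library stood out for Bank1 at 29.2 (others 0), for Cd52 at 81.3 (others 0 to 9.98) and for A530040E14Rik at 47.7 (others 17.5 to 22.2). Cd52 and A530040E14Rik had been named for their likeness to Ighm and H2-Ab1, so they are no independent marks.

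The other 3 marked values were Ubr3 in Nupr1-/- library 4 (151, others 71.5 to 74.8), Lck in wild type library 4 (246, others 135 to 144) and Cst3 in wild type library 2 (1429, others 2030.1 to 2136).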

How the results depend on the processing

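The count of genes called overall was 418. It was 764 with DESeq2, 277 with the replicate number as a block and 30 without wild type libraries 3 and 4. With 1 library left out it ranged from 48 to 883, at 60, 48, 150 and 238 without Nupr1-/- libraries 1 to 4 in turn and 119, 883, 126 and 155 without wild type libraries 1 to 4. The block is no pairing by design: deviations of same-numbered libraries correlated at -0.0566 to 0.0148, and none correlated best with its own number. The class II pathway count (0) was 1 with edgeR and 1 with DESeq2, and 0 to 2 with 1 library left out. The B cell receptor signalling count (1) was 2 with DESeq2, 2 with an added value of 5, 0 without wild type libraries 3 and 4, and 0 to 3 with 1 left out. The plasmacytoid dendritic cell count (0) was 1 with DESeq2 and 0 to 1 with 1 left out. The early lymphoid count (0) was 1 with DESeq2, 1 with an added value of 5, 1 with the replicate block (Cd53, adjusted p = 0.0367), and 0 to 1 with 1 left out. The count for E proteins, ID proteins and IRF factors (0) was 2 with DESeq2 and 0 to 2 with 1 left out, and the B lineage count (0) was 0 to 1. One library held at least 25% of the reads for 6 of the 7 genes, also when scaled to library totals, and for 6 to 7 with 1 left out. The cause of these changes was not tested. Leaving out wild type libraries 3 and 4 was chosen after seeing the data. Ighm rested on 12, 0, 188 and 0 reads in Nupr1-/- libraries 1 to 4, so its low values there carry counting error. Nupr1-/- library 4, with 0 of them, held 3518618 reads in all, beside 3404008 in wild type library 3.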

Other observations

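A search for other genes with the same pattern, made after the values were seen, asked that both wild type libraries 3 and 4 hold at least 2 times the highest value of the other 6 libraries and at least 50 normalised reads. It found 31 genes, 3 of them Ighm, H2-Eb1 and Cd74. Among the higher ratios were those of Pld4 (16.3-fold for the lower of the 2 libraries over the highest of the rest), H2-DMb2 (9.27-fold), Ighm (8.35-fold), Slfn4 (5.93-fold), Ctss (5.54-fold) and Tyrobp (5.49-fold). Tyrobp, the adaptor DAP12 of myeloid and natural killer cell receptors, had 1.25 to 23.1 normalised reads in Nupr1-/- libraries and 18.8, 58.1, 319 and 418 in wild type libraries 1 to 4. Bhlhe40, a transcription factor of immune cells, had 59.8 to 124 in Nupr1-/- libraries and 80.1, 9.85, 509 and 450.5 in wild type libraries 1 to 4. Selp, the adhesion receptor P-selectin of platelets and endothelium, was also among the 31, at 2.66-fold. The genes were selected for this pattern, so no test of it is given.

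Rorb stood beside Ighm in its spread, with 4148 normalised reads in wild type library 4 and 1062 in wild type library 3, against 137 and 205 in the other wild type libraries and at most 99.2 in Nupr1-/- libraries (limma adjusted p = 0.111). Irf4, a factor of B cells and dendritic cells, had 0, 11.2, 187 and 0 in Nupr1-/- libraries 1 to 4 and 18.1, 56.2, 95.7 and 169 in wild type libraries 1 to 4 (limma adjusted p = 0.211). It was highest in Nupr1-/- library 3, the library with the highest class II values of its group. The surrogate light chain gene Vpreb1 reached 34.01 in wild type library 4 and 14.0 in wild type library 3, against 0 to 7.41 in the other 6.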
